A study of Homo sapiens with 54 samples.

Results

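The genes described here are 7 surface and signaling markers of activated and germinal centre B cells, FCER2, GCSAM, MME, CD38, CD40, CD86, and CD44. They were found by matching each Ensembl identifier of the deposited count table to its gene symbol, and all 7 were present among 31835 identifiers. The RNA came from OCI-Ly1, an established human B cell lymphoma line with the BCL2 translocation typical of follicular lymphoma, which also carries a STAT6 variant of its own in the DNA binding domain. Cells stably expressed Flag-tagged STAT6 from a stably transduced construct with a CMV promoter, either wild type (STAT6WT) or with 1 of 3 substitutions in the DNA binding domain, D419G, D419N, or N421K (together STAT6MUT). All cells received IL-4 at 10 ng/ml for 20 min, were washed, and were harvested 2, 4, or 8 h later. Each time point had 9 STAT6WT and 9 STAT6MUT libraries (3 of each substitution), or 54 libraries in all. No library without IL-4 was analysed here, so that levels cannot be set against unstimulated cells. The sources used here do not give the number of independent transductions, so that genotype and transduced population cannot be told apart. Time points were placed in different rows of the plate, and time cannot be told apart from plate row. The study compared the genotypes to find which genes respond differently to IL-4 when STAT6 is mutated.

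Germinal centres are the sites where B cells mutate and select their antigen receptors, and follicular lymphoma arises from such cells. IL-4, a cytokine released there by follicular helper T cells, phosphorylates STAT6 through its receptor, and STAT6 dimers then enter the nucleus and bind paired TTC and GAA sequences with a short spacer. FCER2 encodes CD23, the low-affinity IgE receptor and a classical IL-4 target of B cells. GCSAM and MME mark germinal centre B cells. GCSAM encodes an adaptor protein that restrains their motility, and MME encodes CD10, a cell surface peptidase. CD38 is an enzyme that consumes NAD on the cell surface, CD40 receives T cell help, CD86 is the ligand through which B cells costimulate T cells, and CD44 binds hyaluronan.

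The paired TTC and GAA pattern was searched with any 4 bases between its arms, the spacing that STAT6 favors, and with any 3 bases (TTCNNNGAA), the spacing shared with other STATs, because the genotypes alter the domain that reads it. Both patterns read the same on either strand. The RefSeq promoter windows on GRCh38.p14 run from 250 bases before to 50 bases after each annotated start. They covered 6 members with 11 windows, and CD40 was not in the table. The 4-base spacing was present in 2 of the 11 windows, compared with 6.44% of 35116 windows of all genes. The 3-base spacing was present in 2 of 11, compared with 7.66%. The windows of CD38, CD86, and CD44 held neither pattern. The matches are shown with up to 10 bases on either side, with the match in capitals and position 0 at the annotated start.
FCER2, first start, minus strand, chr19:7702115-7702144, match from position -3: tggctctactTTCAGAAGAAagtgtctctc
FCER2, second start, minus strand, chr19:7699608-7699636, match from position -185: gagggtgaatTTCTAAGAAagggactggt
GCSAM, minus strand, chr3:112133475-112133498, match from position -245: gacttTTCTAAGAAgacaacgtga
MME, plus strand, chr3:155079974-155080003, match from position -27: agcctccaacTTCTCCCGAAtcccactggt
The second FCER2 match and the GCSAM match held the same 3 bases between the arms. A match is a description of these letters, and binding was not measured in this experiment.

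Libraries held 161518 to 2978715 unique molecular identifiers (UMIs, each standing for 1 captured mRNA molecule), with a median of 885258.5. The total was under 0.5 of this median in 8 libraries, 6 of STAT6MUT and 2 of STAT6WT. Levels are given below as CPM, UMIs per 1000000 UMIs of the library, after scaling by the trimmed mean of M values (TMM). STAT6 itself was detected at 132.0 to 226.0 CPM in STAT6WT and 106.0 to 223.0 CPM in STAT6MUT libraries (unscaled totals). Its means at 2, 4, and 8 h were 149 ± 18.7, 153 ± 15.8, and 183 ± 18.7 CPM in STAT6WT (SD, n = 9). In STAT6MUT they were 136 ± 14.9, 125 ± 14.8, and 180 ± 25.0 CPM. The part of the lower STAT6 level at 4 h in the members' results was not tested. In these counts, reads of the transgene and of the cell's own gene cannot be told apart. The construct carries ZsGreen downstream of STAT6, and the libraries mark 3′ ends. The STAT6 count may therefore miss transcripts of the construct and is not a measure of its expression. All 7 B cell defining markers examined (MS4A1, CD79A, CD79B, PAX5, CD22, CD37, and BLK) had UMIs in all 54 libraries. Their summed level was 2870 to 3440 CPM in STAT6WT and 2320 to 2640 CPM in STAT6MUT libraries at 2 h. At 8 h the ranges overlapped, with 3270 to 3610 and 3010 to 3580 CPM. Across time points, 5 of the 7 were called lower in STAT6MUT, where 13.4% of all genes were called. By time point, 4 were called lower at 2 h, 4 at 4 h, and 0 at 8 h, with 8.59%, 3.97%, and 1.44% of all genes called. The part of this shift in the members' results was not tested. Of 8 T and NK cell markers and 8 myeloid markers, 4 each were in the table, with sums of at most 4.64 and 2.69 CPM in any library. Of 6 plasma cell markers, SDC1 and PRDM1, which define these cells, had 3 and 19 UMIs in all libraries together, while JCHAIN (36681 UMIs), MZB1 (14160), TNFRSF17 (1166), and DERL3 (780) had UMIs in all 54 libraries. The summed level of the 6 was 782 to 1190 CPM. Across time points, where 13.4% of all genes were called, 1 of the 4 that passed the count filter, MZB1, was called lower in STAT6MUT (log2 fold change -0.14, adjusted p = 0.0199). Of 8 stroma and epithelium markers, 6 were in the table. EPCAM, an epithelial adhesion molecule, had 3993 UMIs and was found in all 54 libraries, PECAM1 had 251 UMIs, and the other 4 had at most 17 each. EPCAM was the only one that passed the count filter, and it was lower in STAT6MUT (log2 fold change -1.16 ± 0.11 across time points, adjusted p = 1.02e-13, and -0.68 in D419G, -0.71 in D419N, and -2.33 in N421K). The summed level of this list at 2 h was 84.1 to 108.0 CPM in STAT6WT and 14.8 to 81.4 CPM in STAT6MUT. The part of these shifts in the members' results was not tested. Of 10 heat shock genes, 8 passed the filter and 1 was called lower across time points, a share near the 13.4% of all genes.

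Of the 7 members, 6 passed the filter on low counts in the comparison across time points. MME and FCER2 were higher and CD38 was lower in STAT6MUT, while GCSAM, CD40, and CD86 did not pass the test. That is 3 of 6 members called in a comparison that called 13.4% of 9261 genes (adjusted p under 0.05 in the quasi-likelihood test of edgeR, adjusted over all genes tested by the Benjamini-Hochberg method, as for all adjusted p-values below unless another test is named). By time point, 1 of 6 members was called at 2 h (GCSAM, lower), where 8.59% of genes were called. At 4 h it was 2 of 5 (GCSAM and MME, higher) with 3.97% of genes called, and at 8 h 1 of 5 (FCER2, higher) with 1.44%. The direction of the GCSAM difference turned between 2 and 4 h, which the next paragraphs describe first.

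**Figure D1:**
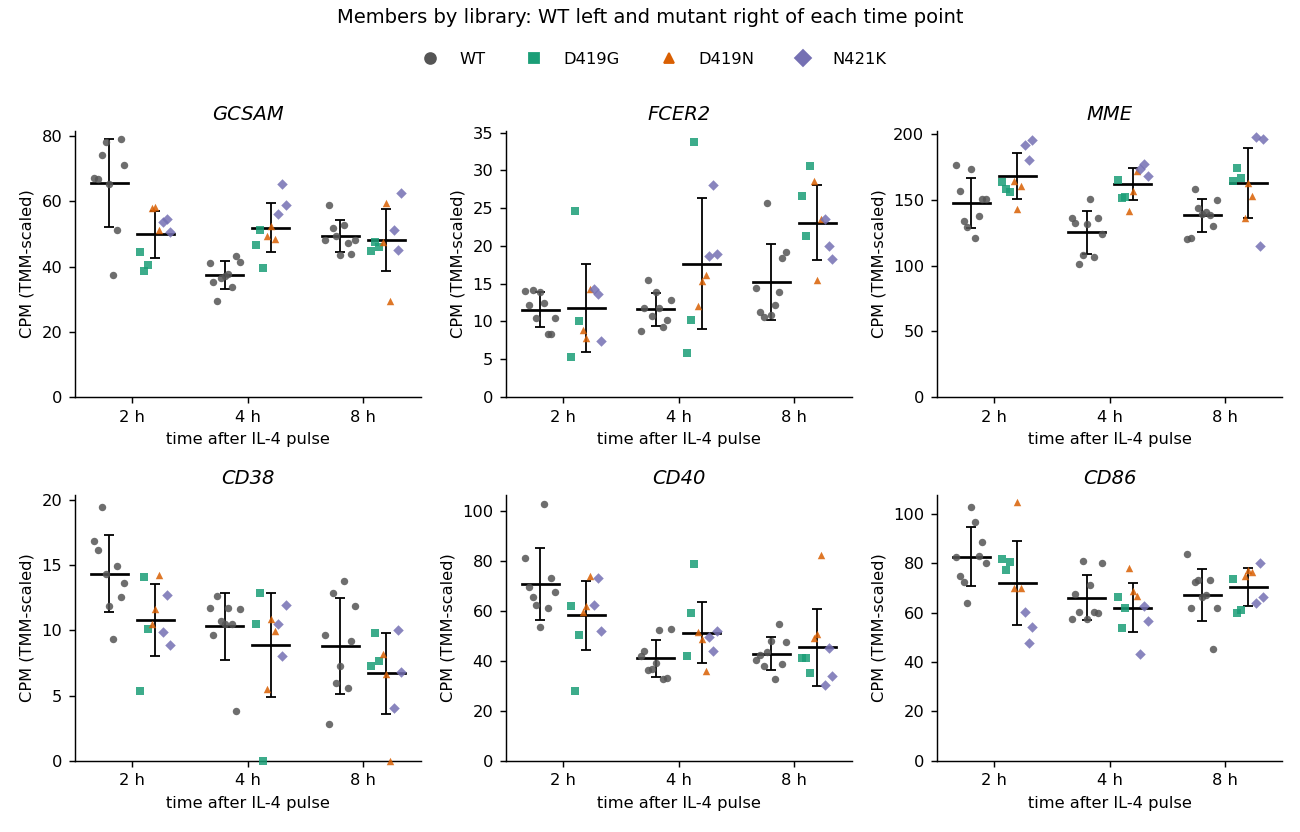
Level of 6 members in each of the 54 libraries. The vertical axes show CPM from 0, the horizontal axes the time after the IL-4 pulse, with STAT6WT (circles) left and the 3 mutant lines (squares, triangles, and diamonds) right. Black lines are mean ± SD of 9 libraries. GCSAM falls from 65.6 to 37.3 CPM between 2 and 4 h in STAT6WT and stays near 50 CPM in STAT6MUT.

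GCSAM (ENSG00000174500, chr3:112120839-112133270, minus strand) was lower in STAT6MUT at 2 h and higher at 4 h. At 2 h, the STAT6WT libraries held 37.4 to 79.1 CPM (median 67.2) and the STAT6MUT libraries 38.6 to 58.1 CPM (median 51.1). The groups overlapped, with 7 of 9 STAT6WT libraries above every STAT6MUT library and 1 below all of them. The log2 fold change of STAT6MUT over STAT6WT was -0.45 ± 0.10 (SE, adjusted p = 0.00136). The exact permutation test of this time point by itself (two-sided, 9 against 9 libraries) gave p = 0.016 and 0.082 after adjustment over 21 tests. Without the 8 libraries of low depth, the exact permutation test gave p = 0.00093 (0.0065 after adjustment), with 7 of 8 STAT6WT libraries above all 7 STAT6MUT libraries.

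At 4 h, STAT6WT libraries held 29.5 to 43.3 CPM (median 37.2) and STAT6MUT libraries 39.4 to 65.4 CPM (median 51.3). Here 8 of 9 STAT6MUT libraries lay above every STAT6WT library. The remaining one was a D419G library with 7 GCSAM UMIs. The log2 fold change was 0.51 ± 0.11 (adjusted p = 0.00225), a ratio of 1.42, and the exact permutation test gave p = 0.00016 (0.0017 after adjustment). At 8 h, the ranges were 43.5 to 59.0 CPM (median 48.2) in STAT6WT and 29.4 to 62.4 CPM (median 47.5) in STAT6MUT, and the difference did not pass the test (log2 fold change 0.06 ± 0.10, adjusted p = 0.88).

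The change with time was tested directly. The difference between genotypes varied among the 3 time points (adjusted p = 8.69e-06), in a test that called 0.957% of 9507 genes. The mean difference at 4 and 8 h exceeded that at 2 h by 0.73 ± 0.12 on the log2 scale (adjusted p = 1.88e-05, 1.02% of genes called). No other member was called in either test. Across time points, the opposite differences left a log2 fold change of -0.01 ± 0.07 (adjusted p = 0.929), so that GCSAM did not appear among the members called there. In all 22 alternative fits the variation with time point kept its call.

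Within genotypes, GCSAM fell in STAT6WT by 0.89 ± 0.10 on the log2 scale from 2 to 4 h (adjusted p = 9.36e-12, with 10.9% of genes called), and at 8 h it was still 0.50 ± 0.09 below 2 h (adjusted p = 8.87e-06, 27.6% of genes called). The STAT6WT means were 65.6 ± 13.5, 37.3 ± 4.26, and 49.3 ± 4.79 CPM (SD, n = 9) at 2, 4, and 8 h. In STAT6MUT, the means were 49.9 ± 7.24, 51.9 ± 7.51, and 48.1 ± 9.5 CPM. Neither later time point passed the test against 2 h in STAT6MUT (log2 fold change 0.07 ± 0.10 at 4 h, adjusted p = 0.729, with 8.9% of genes called, and 0.01 ± 0.10 at 8 h, adjusted p = 0.975, with 33.8% called). The order of the 6 group means was therefore STAT6WT at 2 h, then STAT6MUT at 4 and 2 h, STAT6WT and STAT6MUT at 8 h, and STAT6WT at 4 h. The 4 in the middle differed from each other by less than the SD within any of them.

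**Figure D2:**
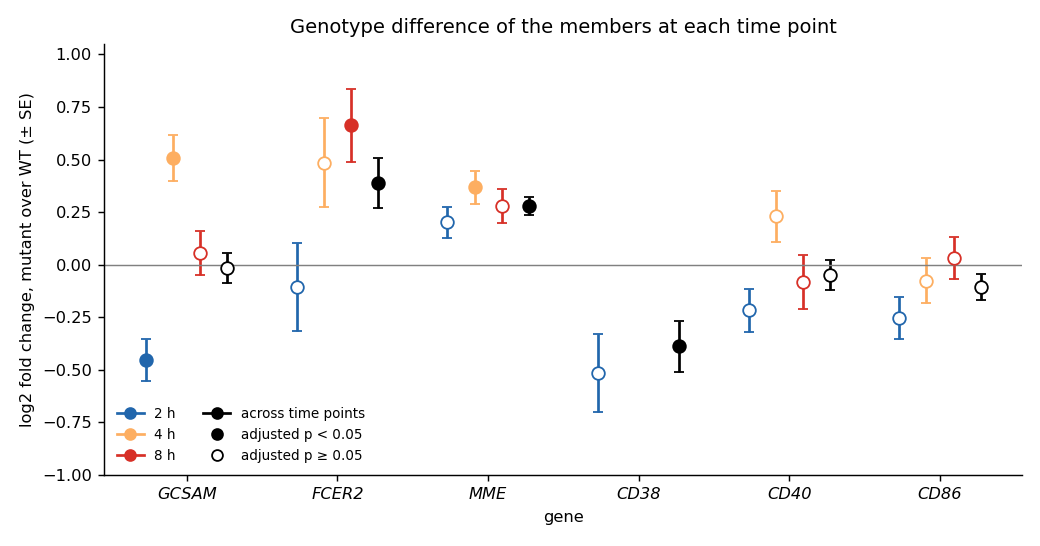
Difference between genotypes of 6 members. The vertical axis shows the log2 fold change of STAT6MUT over STAT6WT with its SE, and colors mark 2, 4, and 8 h and the comparison across time points. Filled points passed an adjusted p of 0.05. GCSAM lies at -0.45 at 2 h and at 0.51 at 4 h, and CD38 has no point at 4 and 8 h because it did not pass the count filter there.

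All 3 lines were below the STAT6WT mean of GCSAM at 2 h and above it at 4 h. At 2 h, D419G held 38.6, 40.3, and 44.4 CPM, D419N 51.1, 57.8, and 58.1 CPM, and N421K 50.7, 53.7, and 54.6 CPM. At 4 h, D419G held 39.4, 46.5, and 51.3 CPM, D419N 48.3, 49.4, and 52.3 CPM, and N421K 56.1, 58.8, and 65.4 CPM. D419G was the lowest line at both time points and N421K the highest at 4 h. The test among the 3 mutant lines, which called 2.39% of 9706 genes, did not call GCSAM (adjusted p = 0.306). Without N421K, the difference at 4 h was 0.39 on the log2 scale and no longer passed (adjusted p = 0.142).

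GCSAM overlaps C3orf52, which lies on the opposite strand. The use of strand in counting is not given in the sources used here, and C3orf52 had 126 UMIs in all libraries compared with 2844 for GCSAM. Over the 12 means of line and time point, the genes with the most similar course were RFWD3 and CD2AP (Pearson r of 0.724 and 0.722, shared libraries, described without a test).

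MME (ENSG00000196549, chr3:155024124-155183704, plus strand), the gene of CD10, was higher in STAT6MUT at each time point. It was the most abundant member, with 8339 UMIs. Across time points, the log2 fold change was 0.28 ± 0.04 (adjusted p = 8.53e-07), a ratio of 1.21, and the call held in all 23 alternatives. At 2 h, STAT6WT libraries held 121 to 176 CPM (median 151) and STAT6MUT libraries 143 to 196 CPM (median 164), with a log2 fold change of 0.20 ± 0.07 that did not pass (adjusted p = 0.0691). At 4 h, the ranges were 101 to 150 CPM (median 132) and 142 to 177 CPM (median 165), and 8 of 9 STAT6MUT libraries lay above every STAT6WT library. This difference of 0.37 ± 0.08 passed (adjusted p = 0.00175, exact permutation p = 8.2e-05 and 0.0017 after adjustment). At 8 h, STAT6WT libraries held 120 to 158 CPM (median 140) and STAT6MUT libraries 115 to 198 CPM (median 164), and the difference of 0.28 ± 0.08 did not pass (adjusted p = 0.0625).

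The difference in MME did not vary detectably with time point (adjusted p = 0.739). In STAT6WT, MME fell by 0.24 ± 0.08 on the log2 scale from 2 to 4 h (adjusted p = 0.0295), a call lost in 9 of 19 alternatives, with adjusted p up to 0.0777. Among lines, MME was higher than in STAT6WT in N421K (0.40 ± 0.05, adjusted p = 1.48e-08) and in D419G (0.22 ± 0.06, adjusted p = 0.016). The test of D419N against STAT6WT called none of the members (0), with 2.75% of genes called (DESeq2 and limma-voom likewise 0), and MME had a mean of 155 ± 12.1 CPM there (SD, n = 9) compared with 137 ± 18.3 CPM in STAT6WT (n = 27) and an unadjusted p of 0.00638, the only member under 0.05. The test of D419G called 5.38% of genes and that of N421K 13.7%. N421K held 180, 192, and 196 CPM at 2 h, all above the highest STAT6WT library. At 8 h it held 115, 197, and 198 CPM, and the lowest of these rested on 23 UMIs. Whether the lines differ in MME was not detectable (adjusted p = 0.114 among the lines). The log2 fold change of N421K over the D419 lines was 0.20 ± 0.06 and did not pass (adjusted p = 0.0625, unadjusted 0.00131). Without N421K, the difference at 4 h was 0.32 (adjusted p = 0.0807), while that across time points still passed. The D419G call was lost without replicate 1 or 2 of every line (adjusted p = 0.162 and 0.0909) and without the count filter (adjusted p = 0.114). AFF2 and NMI had the most similar course over the 12 means (r = 0.87 each).

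CD38 (ENSG00000004468, chr4:15778275-15853232, plus strand) was lower in STAT6MUT across time points, by 0.39 ± 0.12 on the log2 scale (adjusted p = 0.0221). It was sparse, with 0 to 39 UMIs per library. At 2 h, STAT6WT libraries held 9.34 to 19.4 CPM (median 14.3) and STAT6MUT libraries 5.35 to 14.3 CPM (median 10.5), and the difference of -0.52 ± 0.19 did not pass (adjusted p = 0.069). The ranges overlapped further at 4 h (3.82 to 12.6 against 0 to 12.8 CPM) and 8 h (2.81 to 13.8 against 0 to 9.99 CPM), where CD38 did not pass the count filter. The call across time points was lost without replicate 1 of every line (log2 fold change -0.26, adjusted p = 0.303), replicate 3 of every line (-0.34, 0.143), the N421K line (-0.37, 0.128), or the count filter (-0.40, 0.0846). CD38 also fell with time in STAT6WT, by 0.52 ± 0.18 from 2 to 8 h (adjusted p = 0.0257). This call was lost in 4 of 19 alternatives, without the count filter (0.111), without replicate 2 (0.1) or 7 (0.0753), and with plate row in the model (0.0762). The model with plate row cannot separate row from time, since no row held more than 1 time point. In STAT6MUT, the change was -0.53 ± 0.24 and did not pass (adjusted p = 0.0848). The mean levels of the 12 line and time groups had an r of 0.799 with the mean log2 total of their libraries, and the genes with the most similar course were the pseudogenes RPL3P9 (r = 0.971) and PCBP2P2 (r = 0.952). The part of depth in the CD38 values was not tested.

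FCER2 (ENSG00000104921, chr19:7688758-7702146, minus strand), the gene of CD23, was higher in STAT6MUT across time points and at 8 h. Counts were low, with 2 to 35 UMIs per library. At 2 h, STAT6WT libraries held 8.28 to 14.1 CPM (median 12.1) and STAT6MUT libraries 5.35 to 24.6 CPM (median 10.1), with a log2 fold change of -0.11 ± 0.21 (adjusted p = 0.829). At 4 h, the ranges were 8.78 to 15.4 CPM (median 11.7) and 5.81 to 33.8 CPM (median 16.1). The extremes of STAT6MUT were both D419G libraries with 6 UMIs or fewer, and the difference of 0.49 ± 0.21 did not pass (adjusted p = 0.247). At 8 h, STAT6WT libraries held 10.6 to 25.7 CPM (median 13.9) and STAT6MUT libraries 15.4 to 30.6 CPM (median 23.5).

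The 8 h groups overlapped, with 3 of 9 STAT6MUT libraries above every STAT6WT library and 6 STAT6WT libraries below every STAT6MUT library. The log2 fold change was 0.66 ± 0.17 (adjusted p = 0.0368), a ratio of 1.58, and the exact permutation test gave p = 0.0041 (0.029 after adjustment). Without the 8 libraries of low depth, the exact permutation test gave p = 0.016 and no longer passed (0.055 after adjustment). The edgeR call held in 11 of 22 alternatives, with log2 fold changes of 0.54 to 0.97. It was lost with DESeq2 (adjusted p = 0.0896), without the libraries of low depth (0.0551), without each mutant line (0.182 without D419G, 0.0588 without D419N, and 0.054 without N421K), and without replicate 1, 3, 5, 6, or 7 (adjusted p of 0.0629 to 0.281). The call across time points (0.39 ± 0.12, adjusted p = 0.0173) was lost without replicate 2 (0.071), replicate 3 (0.0791), or the N421K line (0.168).

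FCER2 rose with time in STAT6MUT, by 0.68 ± 0.21 on the log2 scale from 2 to 4 h (adjusted p = 0.0274) and by 1.17 ± 0.20 from 2 to 8 h (adjusted p = 1.64e-06), a ratio of 2.24. In STAT6WT, the corresponding changes were 0.09 ± 0.21 (adjusted p = 0.84) and 0.41 ± 0.19 (adjusted p = 0.107). The test of whether the genotypes differ in this course did not pass (adjusted p = 0.317, unadjusted 0.0247, and a difference of 0.68 ± 0.25 between the later time points and 2 h, adjusted p = 0.234). The 4 h change in STAT6MUT was lost without replicate 1, 2, or 3 (adjusted p = 0.0687, 0.0669, and 0.293), without the count filter (0.0725), and with plate row in the model (0.293). Each row held 1 time point, so that the model with plate row cannot separate a row effect from a change with time.

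Of the lines, N421K passed the test against STAT6WT for FCER2 (0.47 ± 0.15, adjusted p = 0.0266). This call was lost without replicate 1 (adjusted p = 0.229), replicate 2 (0.144), or the count filter (0.0529), and with plate row in the model (0.0508). At 8 h the lines held 21.3, 26.6, and 30.6 CPM in D419G, 15.4, 23.5, and 28.6 CPM in D419N, and 18.3, 20.0, and 23.6 CPM in N421K, and the test among the lines over all time points did not call FCER2 (adjusted p = 0.891). Over the 12 means, CNP and AGPS had the most similar course (r = 0.902 and 0.886).

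**Figure D3:**
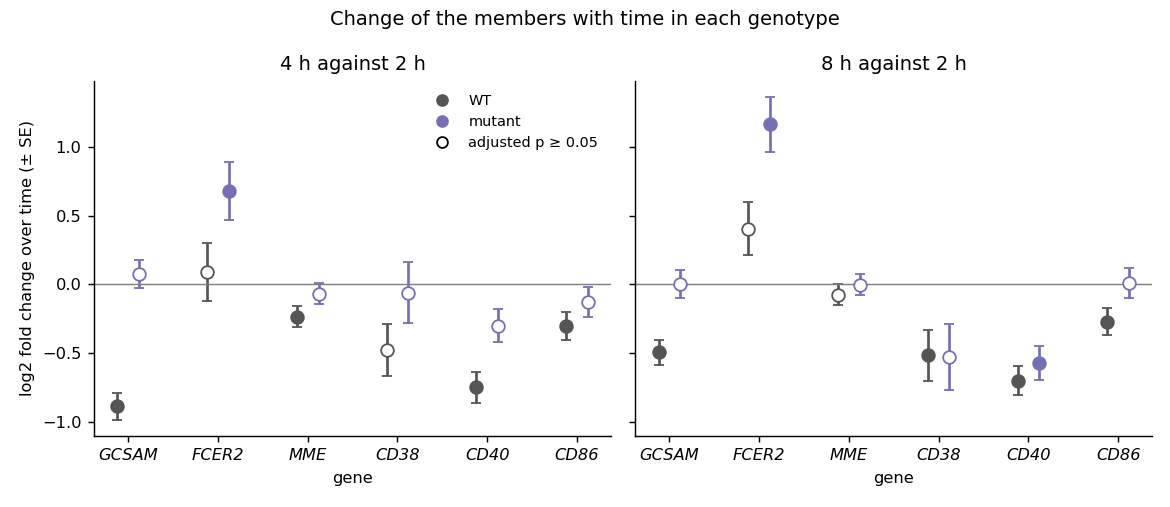
Change of 6 members with time in each genotype. The vertical axis shows the log2 fold change of 4 h (left) and 8 h (right) against 2 h with its SE, in gray for STAT6WT and in violet for STAT6MUT, and open points did not pass an adjusted p of 0.05. GCSAM falls by 0.89 at 4 h in STAT6WT, and FCER2 reaches 1.17 at 8 h in STAT6MUT.

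CD40 (ENSG00000101017, chr20:46118271-46129863, plus strand), the receptor for T cell help, fell with time in both genotypes. In STAT6WT, it was 0.75 ± 0.11 lower on the log2 scale at 4 h than at 2 h (called, adjusted p = 2.61e-07) and, by 8 h, had dropped by 0.70 ± 0.11 (adjusted p = 2.26e-07). In STAT6MUT, the 8 h level fell by 0.58 ± 0.12 (adjusted p = 0.000124), and the 4 h change of -0.30 ± 0.12 did not pass (adjusted p = 0.0967). The means were 70.7 ± 14.3, 41.0 ± 7.55, and 42.8 ± 6.49 CPM in STAT6WT and 58.1 ± 13.8, 51.2 ± 12.3, and 45.4 ± 15.4 CPM in STAT6MUT (SD, n = 9) at 2, 4, and 8 h. The differences between genotypes of -0.22 ± 0.10 at 2 h, 0.23 ± 0.12 at 4 h, and -0.08 ± 0.13 at 8 h had the signs of GCSAM at the first 2 time points but did not pass (adjusted p = 0.187, 0.366, and 0.848). Their variation with time point did not pass either (adjusted p = 0.319, unadjusted 0.0252). RNF138 and PTP4A1 had the most similar course over the 12 means (r = 0.898 and 0.851).

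CD86 (ENSG00000114013, chr3:122055362-122121139, plus strand), which encodes the ligand for CD28 and CTLA4 on T cells, was lower in the N421K line. The log2 fold change of N421K over STAT6WT was -0.31 ± 0.08 (adjusted p = 0.00428), and that of N421K over the D419G and D419N lines was -0.32 ± 0.09 (adjusted p = 0.0362, in a test that called 1.9% of genes). At 2 h, N421K held 47.8, 54.2, and 60.3 CPM, all below the 63.9 CPM of the lowest STAT6WT library and the 69.9 CPM of the lowest library of the other lines. At 8 h, it held 63.9, 66.5, and 80.0 CPM, within the 45.2 to 83.6 CPM of STAT6WT. The call against the D419 lines was lost without replicate 1, 2, or 3 (adjusted p = 0.449, 0.125, and 0.133) and without the count filter (0.0616), and that against STAT6WT without replicate 1 (0.0532). The test among all 3 lines did not pass (adjusted p = 0.07).

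Pooled over the lines, the difference in CD86 between genotypes did not pass the test across time points (log2 fold change -0.11 ± 0.06, adjusted p = 0.278) or at 2, 4, or 8 h (-0.25 ± 0.10, -0.08 ± 0.11, and 0.03 ± 0.10, adjusted p = 0.103, 0.821, and 0.945). Without D419G, the difference at 2 h was -0.36 and passed (adjusted p = 0.0274), as it did without replicate 4 (-0.30, 0.0477). Without D419N, the difference across time points was -0.19 and passed (adjusted p = 0.049), and without N421K it was 0.01 (0.994). In STAT6WT, CD86 decreased by 0.31 ± 0.10 from 2 to 4 h (adjusted p = 0.0337, lost in 7 of 19 alternatives) and by 0.27 ± 0.10 from 2 to 8 h (adjusted p = 0.0281, lost in 4 of 19). TMEM250 and NUDT1 had the most similar course over the 12 means (r = 0.844 and 0.835).

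CD44 (ENSG00000026508, chr11:35138882-35232402, plus strand), the hyaluronan receptor, had 4 UMIs among the 55440686 of all libraries, with 1 UMI in each of 4 libraries. Of these libraries, 1 was STAT6WT and 3 were STAT6MUT, and the gene did not pass the count filter. The exact permutation test gave p = 1.0 at each time point, and a difference between genotypes was not detectable from so few UMIs. A list of CD44 linker and hyaluronan receptor genes also held integrins and CD74 (16 listed, 11 passed the filter). Of these, 2 were higher and 3 lower in STAT6MUT across time points, where 13.4% of all genes were called. Their median log2 fold change was -0.06. RDX, a linker to actin, was higher (0.52 ± 0.06, adjusted p = 3.13e-12), as was the integrin ITGB1 (0.32 ± 0.09, adjusted p = 0.013). CD74, the invariant chain, was lower (-0.20 ± 0.03, adjusted p = 5.18e-06), as was the integrin ITGAL (-0.34 ± 0.07, adjusted p = 0.000116).

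The members were then set beside the other genes of their pathways. Of all 9261 genes tested across time points, 13.4% were called (624 higher and 613 lower), with a median log2 fold change of 0.00, and each list count below stands beside that share. The lists were chosen with earlier results known, and a count is a description of its list. Of 30 germinal centre B cell genes, 22 passed the filter, and 3 were higher and 9 lower in STAT6MUT across time points (median log2 fold change -0.11). BCL6, the master repressor of the germinal centre program, was higher (0.40 ± 0.04, adjusted p = 1.47e-12), with 0.34 at 2 h, 0.56 at 4 h, and 0.29 at 8 h, all of which passed. CXCR4, a chemokine receptor of the dark zone, was also higher (0.21 ± 0.06, adjusted p = 0.00995). S1PR2, which confines B cells to the follicle, was lower (-0.50 ± 0.06, adjusted p = 2.16e-10), and VPREB3 was lower (-0.21 ± 0.04, adjusted p = 5.99e-06). The S1PR2 difference shrank with time, from -0.86 at 2 h (adjusted p = 5.36e-09) to -0.49 at 4 h (0.000386) and -0.23 at 8 h (0.19), and its variation with time point passed (adjusted p = 0.0123). In this list, 3 of 22 genes had a later difference unlike that at 2 h, 2 of them upward, in a test that called 1.02% of all genes (78 of 97 upward).

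Of 30 B cell activation genes, 9 passed the filter, and 3 were higher and 3 lower across time points (median 0.07, 13.4% of all genes called). IRF4, a transcription factor of activated B cells, was higher (0.87 ± 0.14, adjusted p = 1.07e-06), as was the maturation marker CD83 (0.34 ± 0.07, adjusted p = 8.32e-05). CD48, an adhesion ligand, was lower (-0.92 ± 0.14, adjusted p = 4.43e-07), as was MYC (-0.17 ± 0.06, adjusted p = 0.0255). The CD83 difference also changed sign. It was -0.13 ± 0.06 at 2 h (adjusted p = 0.137), 0.77 ± 0.08 at 4 h (2.25e-09), and 0.57 ± 0.11 at 8 h (0.00106), and its variation with time point was called (adjusted p = 2.46e-07). MYC was lower at 2 h (-0.55 ± 0.09, adjusted p = 9.13e-06) and was not called at 4 h (-0.09, 0.703) or 8 h (0.08, 0.729), with a called variation (adjusted p = 0.00105).

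Of 20 genes of CD40 signaling, 17 passed the filter, and 1 was higher and 1 lower across time points (median -0.04), a share near the 13.4% of all genes. These were TRAF3, an inhibitor of the noncanonical pathway (0.34 ± 0.09, adjusted p = 0.00697), and BIRC3, a ubiquitin ligase (-0.15 ± 0.05, adjusted p = 0.0315). Of 20 IL-4 and STAT6 target genes, 11 passed, and 4 were higher and 1 lower (median 0.12, 13.4% of all genes called). XBP1 was higher by 0.64 ± 0.06 (adjusted p = 2.75e-13) and IL21R by 0.98 ± 0.12 (adjusted p = 6.67e-10). IL4R, the receptor for the cytokine itself, was lower (-0.19 ± 0.06, adjusted p = 0.0117). It was lower at 2 h (-0.70 ± 0.07, adjusted p = 4.13e-12), and its difference was 0.04 at 4 h and 0.09 at 8 h (adjusted p = 0.858 and 0.587). Its variation with time point was called (adjusted p = 1.04e-09). Of 9 NAD and nucleotide enzymes, 3 passed, and 1 was higher and 1 lower. PARP14, an ADP-ribosyltransferase, was higher (2.49 ± 0.15, adjusted p = 7.36e-25), and NAMPT, which makes an NAD precursor, was lower (-0.24 ± 0.08, adjusted p = 0.0366).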

How the data were processed

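Per the labels and methods, bulk RNA was made into prime-seq libraries, which barcode each well and mark molecules with UMIs at the 3′ end, and were sequenced on an Illumina HiSeq. Reads went through the Drop-seq pipeline, and the authors deposited the resulting UMI counts of each well, neither normalized nor filtered. The submitters' processing notes name hg38, while aligner, annotation, and strand setting were not given in the sources used here. Of 31835 identifiers, 30959 matched a symbol, every row had an identifier, and no column was left out (0). Gene positions came from an annotation of the same assembly. CCL22 was not analysed here. Of the B cell marker list, 1 gene is not reported here.

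The members, lists, and tests were chosen with earlier results of these data known. Counts were tested in R 4.3.3 with edgeR 4.0.16 (quasi-likelihood, TMM, filterByExpr, Benjamini-Hochberg adjustment over all genes, threshold 0.05). Models held time point and genotype (54 libraries), genotype (18 libraries of 1 time point), time point and line, or the 6 groups of genotype and time point. Exact permutation tests (two-sided) compared log2 CPM with a prior count of 2 over 48620 arrangements, and the smallest p they can give is 4.1e-05. Alternatives covered DESeq2 1.42.0, limma 3.58.1, scaling, filters, replicate number, plate row, and left-out libraries or lines. All members were named, with up to 2 higher and 2 lower genes of each list by smallest p and the 2 genes most like each member by r.

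On simulated counts, the comparison across time points recovered 91 of 95 genes changed by 0.5 on the log2 scale and 94 of 94 changed by 1 (9169 genes, 8 unchanged genes called). The comparison of later time points with 2 h recovered 56 of 99 and 89 of 97 (9386 genes, 5 called). Replicates are labeled as biological and differed by more than sampling noise in all 135 pairs (chi-square per degree of freedom 1.07 to 3.98).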

Additional observations from a re-analysis of the deposited data

Results flagged for a closer look

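The difference in GCSAM between genotypes varied with time point (adjusted p = 8.69e-06 from edgeR's interaction test), and the difference at 4 and 8 h was unlike that at 2 h (adjusted p = 1.88e-05). In 6 of 36 groups of 9 libraries tested, 1 library lay apart from the rest by Dixon's criterion (gap over range above 0.493). Chance alone exceeds this in about 1 of 20 groups. The gap and range were taken on log2 CPM with a prior count of 2, a scale that spreads low values. The levels below are CPM, on which the same ratios are not the ones tested. The lowest library was D419N replicate 3 at 8 h for GCSAM (29.4 CPM from 5 UMIs, next 44.7 CPM) and for CD38 (0 CPM, next 4.04 CPM), in a library of 161518 UMIs. It was D419G replicate 3 at 4 h for CD38 (0 CPM, next 5.49 CPM), with 175878 UMIs, and D419G replicate 2 at 2 h for CD40 (28.1 CPM from 8 UMIs, next 50.4 CPM), with 299578 UMIs. STAT6WT replicate 8 was lowest for CD38 at 4 h (3.82 CPM from 3 UMIs, next 9.63 CPM) and for CD86 at 8 h (45.2 CPM from 64 UMIs, next 61.8 CPM), in libraries of 800139 and 1439162 UMIs.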

How the results depend on the processing

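The variation of the GCSAM difference with time point kept its call in all 22 alternatives (adjusted p of 2.81e-06 to 0.00408), as did the difference of later time points from 2 h (0.67 to 0.84 on the log2 scale, adjusted p of 4.11e-06 to 0.00445). The GCSAM differences at 2 and 4 h had the same direction in all 22, but the 2 h call was lost with the replicate block (adjusted p = 0.113) and the 4 h call with the block (0.129) and without N421K (0.142). Of all 1157 alternative values of the members' reported results, 1058 kept direction and side of the threshold, 68 lost a call, 12 gained one, and 19 changed sign, none of the last from a called value. The cause of these changes was not tested. Counts were low for FCER2 (2 to 35 UMIs per library) and CD38 (0 to 39), and CD44 had 4 UMIs in all libraries together.

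Deviations of same-numbered STAT6WT and mutant libraries of a time point correlated at -0.237 to 0.123 (3 of 27 over 0.1). Within a line across time points, same numbers reached 0.337 (7 of 54 over 0.1) and other numbers 0.233 (24 of 270). Sampling noise can lower such values, so that pairing was not decided. Replicate numbers above 3 occurred only in STAT6WT. With the block, their libraries do not inform the difference between genotypes at a time point, so that fewer libraries carry it. With the replicate block, 0 members were called at 2 h, 0 at 4 h, 0 at 8 h, 0 in D419G, 0 between N421K and the D419 lines, and 2 across time points. The block also ended the FCER2 calls across time points (adjusted p = 0.127), at 8 h (0.16), and in N421K (0.0755), the MME calls at 4 h (0.127) and in D419G (0.158), and the CD86 call between N421K and the D419 lines (0.061). The calls over all genes fell from 1237 to 638 across time points, 743 to 212 at 2 h, 342 to 78 at 4 h, 127 to 31 at 8 h, 522 to 325 in D419G, and 267 to 151 in D419N. The block changed the sign of values not called, to 0.015 (CD86, 4 h), 0.015 (CD40, 8 h), -0.13 (CD86, 8 h), and -0.027 (GCSAM, 8 h).

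The counts of members called moved by over 1.5 times as follows. DESeq2 called 0 members at 8 h (90 genes), 1 among the lines (281 genes), and 2 between N421K and the D419 lines (194 genes). limma-voom and the random effect of line and replicate number called 1 each among the lines, where limma-voom called 314 genes. Total counts only called 2 from 2 to 4 h in STAT6WT (1072 genes) and 2 at 8 h (120 genes). Without the count filter, 0 were called from 2 to 4 h in STAT6MUT (652 genes) and 0 in D419G (449 genes). Between N421K and the D419 lines it was 0 (220 genes), and at 8 h 239 genes were called. With all libraries in 1 model, 2 members and 247 genes were called at 8 h. Plate row as a covariate, added after seeing the data, called 0 members and 519 genes (846 without it) from 2 to 4 h in STAT6MUT, and changed the 4 h value of FCER2 in STAT6WT to -0.002. Because each row held 1 time point, this covariate cannot remove a row effect from a change with time. Without the libraries of low depth, 2 were called from 2 to 4 h in STAT6MUT (839 genes) and 2 between N421K and the D419 lines (213 genes). In the same libraries, 5 rather than 3 of the 21 exact permutation tests passed. Gained were GCSAM and CD38 at 2 h and MME at 8 h, and FCER2 at 8 h was lost.

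Without D419G, MME (log2 fold change 0.24, adjusted p = 0.0476) and CD86 (-0.36, 0.0274) passed at 2 h beside GCSAM. At 8 h, FCER2 no longer passed (0.182). Without D419N, MME passed at 2 h (0.24, 0.0374) beside GCSAM, and at 8 h (0.34, 0.0155), where FCER2 was lost (0.0588). Without N421K, 1 member was called across time points (586 genes), 0 at 4 h (93 genes), and 0 at 8 h (74 genes). The same fits called 291 genes at 2 h. They called 43 for the variation with time point (91 with N421K) and 47 for later time points against 2 h (97). Values not called changed sign without D419G (GCSAM across time points 0.061, CD38 later against 2 h -0.004), without D419N (CD86 at 8 h -0.021), and without N421K (CD86 0.008 across time points and 0.059 at 4 h, CD40 0.08 and GCSAM -0.044 at 8 h).

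Replicate numbers 1, 2, and 3 occur in all 4 lines. Without 1 of them, fewer libraries of every line remain. Leaving out each replicate number in turn gave 0 to 1 members among the lines, 0 to 1 from 2 to 4 h in STAT6MUT, 2 to 4 from 2 to 4 h in STAT6WT, 0 to 1 in D419G, 1 to 4 in N421K, 0 to 1 between N421K and the D419 lines, 1 to 3 across time points, 1 to 2 at 2 h, and 0 to 1 at 8 h. The calls over all genes moved as well, so that these ranges are a description of the fits. Without replicate 1, 876 genes were called across time points (1237 with it), 432 at 2 h (743), and 300 at 8 h (127). Over these settings, the log2 fold change of GCSAM took -0.047 to 0.007 across time points and -0.079 to 0.091 from 2 to 8 h in STAT6MUT, that of FCER2 at 2 h -0.214 to 0.054, and that of CD86 at 8 h -0.04 to 0.084.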
